A study of Mus musculus with 6 samples.

Results

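Normal mouse fetal liver at embryonic day 12.5 is described here from the 3 wild-type livers of a series of 6 livers. The members were the libraries whose genotype label reads wild type, numbered 2, 15 and 17. The other 3 livers carry a mutation in the editing enzyme ADAR1 and were not compared. All 3 donors were C57BL/6 embryos, liver 2 from a male and livers 15 and 17 from females. Each whole liver was dispersed into single cells before its RNA was extracted, so the libraries hold every cell type that came through that step. The labels name no litter, no dissection day and no library date. Reads counted in genes were 39441790 in liver 2, 43733715 in liver 15 and 39192271 in liver 17.

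At this age the liver is the main site of blood formation. Red cell precursors divide and fill with haemoglobin there, beside blood stem cells, macrophages, megakaryocytes, hepatoblasts (the precursors of hepatocytes and bile duct cells), endothelium and mesenchyme. ADAR enzymes convert adenosine to inosine in double-stranded RNA, often where a transcript holds a repeat and its inverted copy in the 3′ UTR. Sequencing reads inosine as G, so the editing level of a site is the percentage of covering reads with G in place of A.

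The sites on which the editing results turn are shown with 14 bases on each side, 5′ to 3′ on the edited strand, in the letters of the genome build NCBIM37 and with the edited A in capitals. The first 4 lie in 3′ UTRs and were among those with the most edited reads or the most unequal levels. The next 4 change an amino acid. The last was read as G throughout in one liver and never in the other two.
Rpa1 site a: ttcaaacagaaattAtgtcacaagtcatt
Rpa1 site c: gggtcagttacttgAgacacaatccctgt
Rbbp4 site a: tacccagctacaatAggtgccaccaacaa
Rhoa: aacttttgtgaattAggctgtaactactt
Blcap: ggcagagatcatgtAttgcctccagtggc
Cog3: tcaccattaaggaaAtttccctggacctc
Copa: tccgcgtttgggatAtttctggtgagcta
Flna: tgtttctagtcttcAggtgaggcactgag
Slc39a7: aaggagaggaggaaAcactgggcccagag

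Liver 2 stood apart from the other two. The Pearson correlation of log2 CPM (counts per 1000000 reads, scaled for library composition) across 13643 genes was 0.956 between livers 2 and 15, 0.969 between livers 2 and 17, and 0.992 between livers 15 and 17. These are correlations across genes, which are not independent replicates. In the same order of pairs, 1644, 1150 and 204 genes were more than 2-fold apart. The biological coefficient of variation estimated by edgeR, the typical relative spread of a gene among livers, was 0.283 over the 3 livers and 0.125 without liver 2. Sex, cell make-up and any difference in dissection or dispersal cannot be told apart here, since liver 2 is also the only male. The sex labels matched the reads: Xist, the RNA that silences the X chromosome, stood at 1.17 CPM in liver 2, 1152 CPM in liver 15 and 1148 CPM in liver 17, and the Y-linked Ddx3y at 90.8, 0.073 and 0 CPM.

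**Figure D1:**
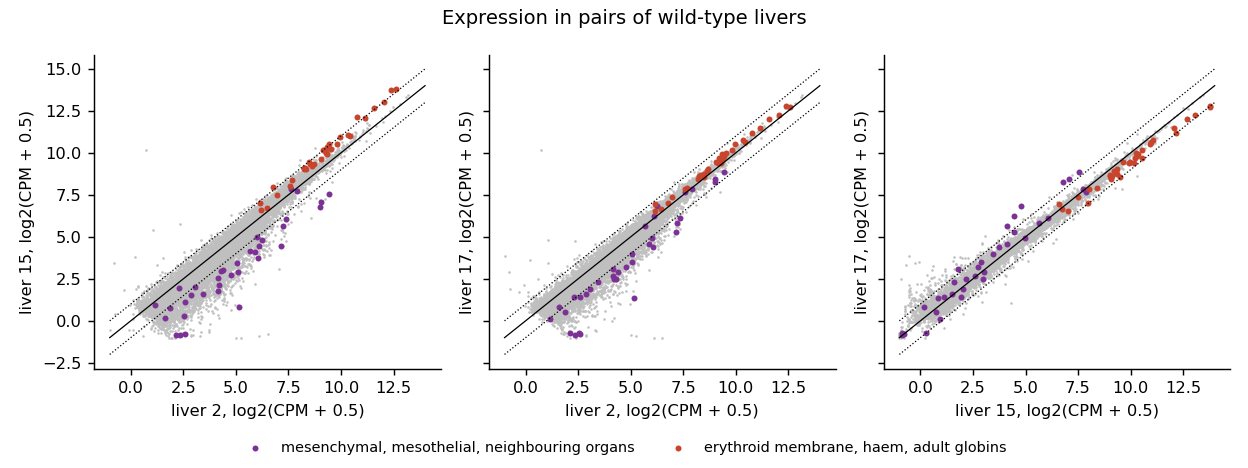
Each panel plots 1 pair of wild-type livers, with log2(CPM + 0.5) on both axes and a grey point for each of 13643 genes. The solid line marks equal levels and the dotted lines a 2-fold difference. Most purple genes (mesenchymal, mesothelial and neighbouring-organ lists) fall below the line in both panels with liver 2. Red genes (erythroid membrane, haem and adult globin lists) lie above the line in these panels.

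Expression was led by globins, mitochondrial genes and secreted liver proteins. Levels between genes are given in TPM (transcripts per 1000000), reads per kilobase of exon scaled to 1000000. A total of 23851 genes had a read and 12854 reached 1 CPM in each liver. The 10 genes with the most reads took 6.31% of reads in liver 2, 8.41% in liver 15 and 6.99% in liver 17, and 817 genes made up 50% of all reads. Of the 25 genes with the highest TPM, 22 were shared by all 3 livers, and of the top 100, 91 were shared. The leading 25 comprised the 7 globin genes, 7 mitochondrially encoded genes, Afp and Alb, the elongation factor Eef1a1, the ribosomal protein genes Rplp1, Rps12, Rpl32 and Rpl4, Gm10076, the ferritin heavy chain gene Fth1, Ptma and the antioxidant enzyme gene Gpx1.

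The adult globins Hba-a1 and Hbb-b1 had the highest mean levels. The 4 adult globins had the largest SD of TPM and of log2 CPM among the leading 25 genes. Hba-a1 (ENSMUSG00000069919, chromosome 11, 32183511 to 32184465), an adult alpha-globin gene, stood at 17100.4 TPM in liver 2, 37949 in liver 15 and 21270 in liver 17. Hbb-b1 (chromosome 7, 110975048 to 110976610), an adult beta-globin gene, stood at 18796, 36320 and 19011 TPM. Both were highest in liver 15, and livers 2 and 17 were close for Hbb-b1. Hba-a2 and Hbb-b2 had the same order, from 6722 to 15096 and from 15684 to 26760.5 TPM. Within each adult pair, alpha or beta, the copies are so alike that reads may have been assigned to either, which leaves the level of a single copy uncertain. Summed, the 4 adult globins made up 5.83%, 11.6% and 6.51% of all TPM in livers 2, 15 and 17, a mean of 7.98 ± 3.16% (SD, n = 3).

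Embryonic globins, which come from the yolk-sac wave of red cells, kept a different order. Hbb-y, the embryonic epsilon-type gene, stood at 20462 TPM in liver 2, 19433 in liver 15 and 23650 in liver 17. Hbb-bh1 stood at 3242, 3325 and 5994 TPM, and the zeta-type gene Hba-x at 3752, 2983 and 5755 TPM. All 3 were highest in liver 17 under each scaling tried, where 22.4% of all genes were highest by composition scaling. By total reads, 3748 of all 13643 genes were. As a share of all TPM, the embryonic globins made up 2.75%, 2.57% and 3.54%, so the adult sum was above the embryonic sum in each liver. In CPM, Hbb-bh1 and Hba-x were each 1.67-fold higher in liver 17 than in the next liver, which placed both among the 5 furthest above in that liver of the genes at 10 mean CPM or more.

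The 7 cell type markers covered a wide range. Afp, the fetal serum protein of hepatoblasts (chromosome 5, 90919740 to 90937933), stood at 10948, 10813.5 and 11596 TPM in livers 2, 15 and 17, and ranked 8 among all genes. Slc4a1, the red cell anion exchanger, stood at 1650.1, 2957.5 and 2044 TPM (rank 56). Alas2, the first enzyme of haem synthesis in red cells, stood at 741.7, 1387 and 818.3 TPM (rank 122). Slc4a1 and Alas2 were both highest in liver 15 and lowest in liver 2. Col1a1, the fibrillar collagen chain of mesenchyme, stood at 204.6, 36.8 and 110.6 TPM (rank 1206), the widest spread of the 7.

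Markers of the rarer cells were low and even. Kit, the receptor of blood progenitors and mast cells, stood at 29.9, 32.6 and 39.6 TPM (rank 4163). Csf1r, the macrophage growth factor receptor, stood at 24.3, 24.8 and 26.7 TPM (rank 5250), and the endothelial adhesion molecule Pecam1 at 24.6, 19.6 and 19.9 TPM (rank 5821). Each of the labelled tissue's defining markers was thus present in every liver. In whole-organ RNA, fewer cells of a type and less RNA per cell cannot be told apart.

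**Figure D2:**
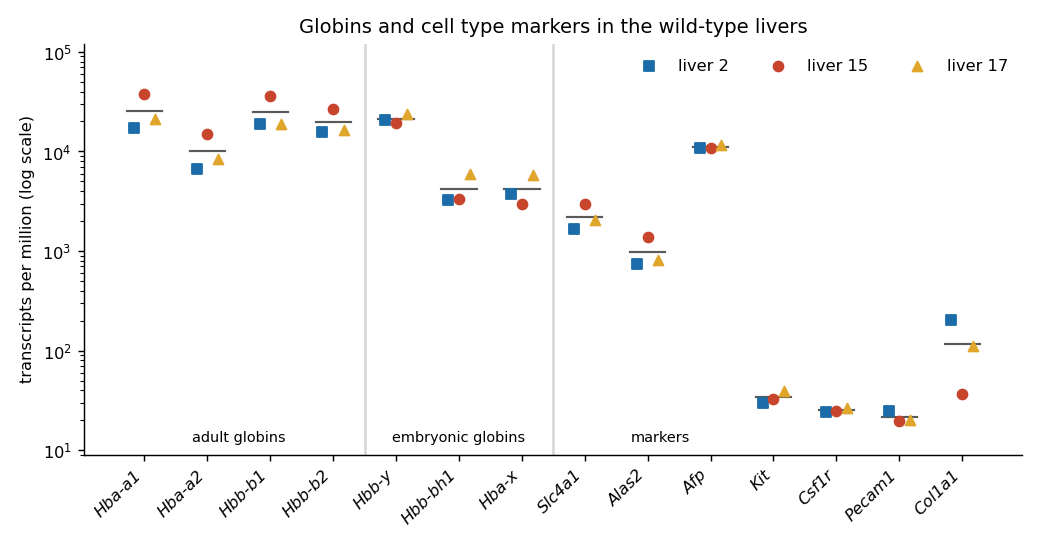
Levels in TPM on a log axis for 7 globin genes and 7 cell type markers, with 1 symbol for each liver and a bar at the mean of the 3. Adult globins, Slc4a1 and Alas2 are highest in liver 15, Afp is nearly level, and Col1a1 runs from 36.8 in liver 15 to 204.6 in liver 2.

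Red cell genes moved together across the livers. Of 17 measured genes of the red cell membrane and skeleton, 16 were highest in liver 15 and 17 were lowest in liver 2, where 35.3% of all 13643 genes were highest in liver 15 and 45.4% were lowest in liver 2. Ank1, a membrane anchor of the red cell skeleton, stood at 647.5, 1297 and 956.7 CPM in livers 2, 15 and 17. All 13 haem synthesis genes were highest in liver 15 and lowest in liver 2. Among them were Slc25a37, the mitochondrial iron importer, at 2281, 4305 and 2890 CPM, and Fech, which inserts the iron, at 693.2, 1267 and 909.5 CPM. With scaling by total reads, 16 of 17 and 11 of 13 were still highest in liver 15, against 2227 of all 13643 genes. Icam4, the remaining member of the membrane list, had no read in any liver.

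The transcription factors of the red cell lineage were also lowest in liver 2. All 14 of that list were lowest in liver 2, against 45.4% of all genes, and 11 were highest in liver 15, against 35.3%. Klf1, which activates adult beta-globin, stood at 254.3, 420.8 and 359.6 CPM, and Gata1, the master factor of the lineage, at 175.8, 296.5 and 253.0 CPM. Epor, the erythropoietin receptor, stood at 170.7, 265.9 and 244.8 CPM. The median gene of the list was lower in liver 2 than in the mean of the others by a log2 difference of -0.52, against -0.02 over all genes. Bcl11a and Sox6, which repress embryonic globins, stood at 96.7, 112.6 and 123.9 CPM and at 108.2, 180.6 and 134.0 CPM.

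Megakaryocyte and granulocyte genes were also lowest in liver 2, with different peaks. Of 15 megakaryocyte genes, 13 were highest in liver 17, against 22.4% of all genes, and 15 were lowest in liver 2, against 45.4%. Pf4, a platelet chemokine, stood at 100.2, 151.9 and 174.1 CPM, and Itgb3, a chain of the platelet fibrinogen receptor, at 134.7, 283.1 and 305.8 CPM. All 12 granulocytic genes were highest in liver 15, against 35.3% of all genes. With scaling by total reads it was 10 of 12, against 2227 of all 13643 genes. Mpo, the peroxidase of granulocyte precursors, stood at 83.1, 174.1 and 124.7 CPM. The neutrophil proteins S100a8 and S100a9 were nearly level, at 43.4, 51.2 and 50.7 CPM and at 67.0, 84.0 and 71.8 CPM. Epx, the eosinophil peroxidase, was the furthest above in liver 17 among genes at 10 mean CPM or more, at 11.6, 12.6 and 25.2 CPM.

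Stem cell, macrophage and lymphoid genes were sparse. Among 18 stem and progenitor genes, Cd34 was the highest per length, at 39.2, 43.9 and 41.4 TPM. By composition scaling, 13 of the 18 were lowest in liver 2, against 45.4% of all genes, and 10 were highest in liver 15, against 35.3%. Meis1, Procr and Mecom, which mark stem cells but also other tissues, went the other way. They were the 3 members at least 2-fold above in liver 2, where 8.93% of all genes met that rule. Mecom stood at 16.3, 4.45 and 3.78 CPM. Macrophage genes were alike in all livers: the complement gene C1qb stood at 27.3, 27.7 and 26.8 CPM and the phagocytic receptor Timd4 at 7.96, 9.32 and 8.67 CPM, and none of 18 measured members was 2-fold above or below in any liver. Which liver held most macrophage members depended on the scaling, with 6 in liver 2 and 9 in liver 15 by composition and 8 and 6 by total reads. Of all 13643 genes, 5767 and 4819 were highest in livers 2 and 15 by composition, and 7668 and 2227 by total reads. Of 13 lymphoid genes, 3 reached a mean of 1 CPM and 5 had under 10 reads over the 3 livers. The T cell gene Cd3e had none, and Pax5 of B cells stood at no more than 0.0974 CPM.

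Hepatoblast genes as a group took a near-level share of expression. The 26 genes made up 2.47%, 2.38% and 2.52% of TPM in livers 2, 15 and 17, a mean of 2.46 ± 0.07% (SD, n = 3). Alb, the adult serum albumin gene, stood at 7339, 7269 and 7298 TPM, and the lipoprotein gene Apoa2 at 1649, 1460 and 1526 TPM. Hnf4a, the master factor of hepatocytes, stood at 92.7, 100.1 and 101.8 CPM. Cps1, a urea cycle enzyme of mature hepatocytes, was near 0, at 0.55, 0.68 and 0.46 CPM. The exceptions were the epithelial genes Epcam, at 17.2, 0.75 and 2.56 CPM, and Krt19, at 8.99, 1.87 and 4.37 CPM, both at least 2-fold above in liver 2 and both at least 2-fold below in liver 15, where 2.04% of all genes met the lower rule. Both also mark bile duct and gut epithelium.

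Endothelial genes differed little. Lyve1, a sinusoidal receptor, stood at 53.9, 76.4 and 43.2 CPM, Cdh5, the endothelial cadherin, at 69.8, 68.3 and 58.1 CPM, and Kdr, a receptor for vascular growth factor, at 69.8, 75.7 and 70.6 CPM. None of 18 members was 2-fold above or below in any liver. Of them, 12 were lowest in liver 17 by composition scaling, against 19.2% of all genes. By total reads 12 were also lowest there, against 2165 of all 13643 genes. The highest liver depended on the scaling, with 11 members highest in liver 15 by composition and 4 by total reads. Over all 13643 genes the count also fell, from 4819 to 2227.

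Mesenchymal and mesothelial genes were high in liver 2. Of 18 mesenchymal and stellate genes, 16 were highest in liver 2, against 42.3% of all genes. At least 2-fold above both other livers were 11, against 8.93% of all genes. Summed, the list made up 0.116%, 0.0288% and 0.0656% of TPM in livers 2, 15 and 17, a mean of 0.0702 ± 0.0439% (SD, n = 3), or 0.0472% without liver 2. Pdgfra, a growth factor receptor of fibroblasts, stood at 142.5, 21.4 and 38.0 CPM, and Acta2, the smooth muscle actin, at 65.5, 13.1 and 20.6 CPM. Liver 15 was low, with 7 members at least 2-fold below both others, against 2.04% of all genes. Col3a1, a fibrillar collagen, stood at 693.4, 189.1 and 466.0 CPM. Postn, a matrix protein, was instead highest in liver 17, at 75.7, 27.2 and 112.9 CPM, and Reln, made by stellate cells, was level at 240.5, 216.0 and 229.1 CPM. Of 8 measured mesothelial genes, which mark the surface layer of the organ, 7 were at least 2-fold above in liver 2, against 8.93% of all genes. Among them was Wt1 at 27.2, 6.21 and 8.79 CPM. The exception was Podxl, also made by endothelium and progenitors, at 193.6, 231.6 and 204.9 CPM.

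Genes of organs beside the liver had reads mainly in liver 2. All 9 measured members of that list were highest in liver 2, against 42.3% of all genes. At least 2-fold above were 7 of them, against 8.93% of all genes. Barx1, a factor of the stomach mesenchyme (chromosome 13, 48758367 to 48761876), stood at 34.9, 1.29 and 2.02 CPM. Nkx2-1 of lung and thyroid stood at 3.87, 0.05 and 0.10 CPM, and the stem cell and foregut factor Sox2 at 4.59, 0.05 and 0.05 CPM. The muscle factors Myog and Myod1 did not follow, at 4.42, 3.36 and 2.22 CPM and at 1.71, 1.41 and 0.59 CPM. Summed, the 16 genes made up 0.0142%, 0.00256% and 0.00236% of TPM. Defining genes of pancreas and intestine were near 0 in every liver, with Ptf1a at no more than 0.02 CPM and Cdx2 at no more than 0.19 CPM. The part of these organs in the mesenchymal levels of liver 2 was not tested.

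Immediate-early and heat shock genes ran the other way. Of 14 such genes, which respond within minutes to handling of tissue, 6 were at least 2-fold below in liver 2, where 0.227% of all genes met that rule. In liver 15, 11 were highest, against 35.3% of all genes. Fos (chromosome 12, 86814840 to 86818223) stood at 1.57, 42.7 and 27.4 CPM, Fosb at 0.07, 10.3 and 6.88 CPM, and the heat shock gene Hspa1b at 4.54, 54.2 and 26.3 CPM. Other members such as Btg2, at 94.2, 123.2 and 101.8 CPM, and Atf3, at 2.81, 2.53 and 2.63 CPM, differed little. Across the 3 livers these levels went with the red cell lists and opposite to the mesenchymal list, and their part in those results was not tested.

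**Figure D3:**
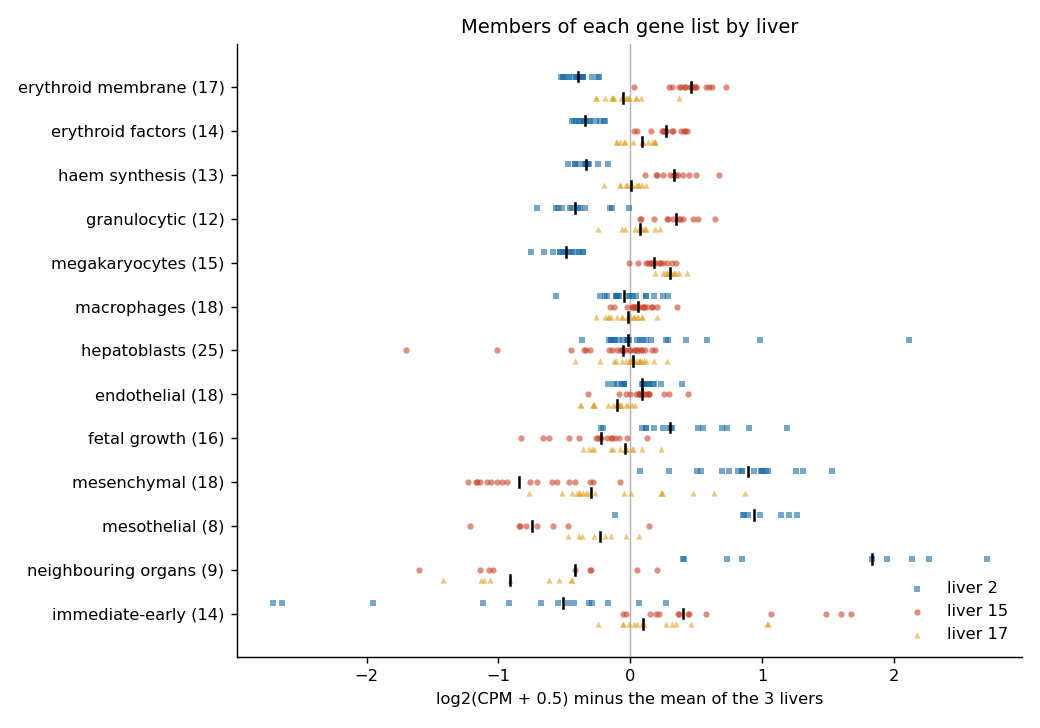
Each point is 1 gene of a list (number of genes of at least 1 mean CPM in parentheses), placed by its log2(CPM + 0.5) in a liver minus its mean over the 3 livers, with a black tick at each median. Red cell, haem and granulocytic lists sit left of 0 in liver 2 and right of 0 in liver 15. Mesenchymal, mesothelial and neighbouring-organ lists lie on the opposite sides in livers 2 and 15.

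Cell division genes were high throughout. Mki67, a marker of cycling cells, stood at 612.7, 858.9 and 716.0 TPM and Pcna, the sliding clamp of DNA replication, at 709.1, 693.9 and 708.8 TPM. In CPM, Pcna stood at 649.9, 751.7 and 709.5. All 15 mitosis genes were highest in liver 15 by composition scaling, against 35.3% of all genes. By total reads it was 11, against 2227 of all 13643 genes. Of 16 DNA replication genes, 9 were highest in liver 17 by composition scaling, against 22.4% of all genes. By total reads it was 12, against 3748 of all 13643 genes. In liver 2, 15 of these 16 were lowest by composition scaling, against 45.4% of all genes. By total reads it was 12, against 3809 of all 13643 genes. Fetal growth and imprinted genes, by contrast, were highest in liver 2 for 14 of 16, against 42.3% of all genes. H19, an imprinted non-coding RNA, stood at 4158, 3621 and 3733 CPM, and Igf2, a fetal growth factor, at 2340.1, 1689 and 1920 CPM. Plagl1 and Hmga2, which encode growth-related nuclear proteins, were wider, at 603.3, 149.1 and 206.0 CPM and at 270.9, 94.4 and 118.6 CPM.

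Over all genes, the calls past 2-fold fell mainly on liver 2. It held 1218 genes at least 2-fold above both other livers, against 31 in liver 15 (0.227%) and 14 in liver 17 (0.103%). Liver 15 held 278 genes at least 2-fold below, against 31 in liver 2 and 29 in liver 17 (0.213%). Besides Xist and the Y-linked Ddx3y, Eif2s3y, Kdm5d and Uty, the 15 genes of widest spread at 10 mean CPM or more included Barx1, Fos, Hspa1b, Dnm3os, Sparcl1 and the peptide transporter gene Slc15a2. Slc15a2 was the one that was low in liver 17, at 20.6, 19.5 and 1.56 CPM. At the same minimum, the genes furthest above in liver 15 were led by Tcp11l2, at 26.6, 78.9 and 24.4 CPM, Tmcc2, at 436.4, 1271 and 401.1 CPM, and Xpo7, a nuclear exporter, at 265.6, 760.0 and 232.9 CPM. The steadiest genes included Rpl5, at 1132, 1128 and 1129 CPM, and Sec16a, at 114.6, 114.4 and 114.5 CPM. In all, 2109 genes, or 15.5%, lay within 10% between their highest and lowest liver.

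Editing enzymes were expressed at modest levels. Adar (ENSMUSG00000027951, chromosome 3, 89518944 to 89557368) stood at 22.6, 24.1 and 19.6 TPM in livers 2, 15 and 17. Adarb1, which encodes ADAR2, stood at 3.01, 1.66 and 1.84 TPM, and Adarb2, which encodes a family member without known activity, at 1.71, 1.42 and 1.76 TPM. Adar was highest in liver 15 and Adarb1 in liver 2. Interferon-stimulated genes were low: Isg15 stood at 2.33, 7.11 and 1.66 CPM and Ifit1 at 0.55, 2.0 and 0.38 CPM. Of 14 measured members, 13 were highest in liver 15 by composition scaling, against 35.3% of all genes. By total reads it was 10, against 2227 of all 13643 genes. By composition scaling 10 were lowest in liver 17, against 19.2% of all genes.

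The site table held 6012 candidate sites, of which 2349 had at least 10 covering reads in each wild-type liver, with a median of 42 reads for a site and liver. Of these, 2027 sites in 525 named genes or between genes had an edited read in at least 1 liver, 1209 had at least 3 edited reads and 767 were edited in every liver. Levels were mostly low. The median of the edited sites was 3.28%, 60.4% were under 5%, and 195 reached 20%. For 322 sites no edited read was seen at this depth. By location, 1435 sites lay in 3′ UTRs, 534 in introns, 179 between genes, and 75 changed an amino acid.

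The mean level over the 2349 sites was 5.41% in liver 2, 8.11% in liver 15 and 6.75% in liver 17, or 6.76 ± 1.35% (SD, n = 3). Without liver 2 the mean was 7.43%. The order was the same in 3′ UTRs, at 4.26%, 7.33% and 5.76%, in introns, at 5.54%, 7.71% and 6.52%, and between genes, at 9.98%, 13.0% and 12.3%. Sites that change an amino acid were lower and had another order, at 1.75%, 1.58% and 1.34%. Sites share transcripts and livers, so these means are a description without a test. Adar was also highest in liver 15, but lowest in liver 17. The red cell lists had the same order of livers as the mean level, and their part was not tested.

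The bases beside edited sites differed from those beside other adenosines in the same 100 bases to each side. G stood just before the edited A at 9.67% of edited sites, against 22.8% of the other A. T stood before it at 38.2%, against 19.7%, and G after it at 42.9%, against 30.4%. The share with G before was 22.6% at levels above 0 and below 1%, 7.81% at 1 to 5% and 3.39% at 5 to 10%. The share with T before was 20.6%, 39.1% and 44.4% in the same bins. At 20 to 50% (159 sites) it was 56.0% for T and 4.40% for G. Sites below 1% thus had a G share near that of the other adenosines in their surroundings, 23.5%. These other adenosines can include edited sites. Sites without any edited read had G before at 18.9%.

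Edited sites were clustered. Rpa1, which encodes a subunit of the single-strand DNA binding protein RPA, held 50 edited sites within 558 bases of its 3′ UTR (chromosome 11, 75114038 to 75114595). Mad2l1, a gene of the spindle checkpoint, held 49, Ncl, the gene of nucleolin, and C330018D20Rik 37 each, and Rnf168, which encodes a ligase of the DNA damage response, 32. Aligning each cluster with its own reverse complement gave inverted copies in 7 of the 9 clusters that were short enough to align. In Rpa1 the copies lay at chr11:75114020-75114150 and chr11:75114451-75114579, were 78.8% identical and held 49 of the 50 sites in 34.3% of the window. In Mad2l1 they held 48 of 49 sites in 29.9% of the window, and in Rnf168 29 of 32 in 36.9%, with 87.9% identity. In Wdr76 they held 24 of 27 sites in 44.0% of the window and in Jmjd4 20 of 21 in 12.6%. Ankrd28 had 15 of 28 sites in its copies, which filled 15.6% of the window. Mdc1 and Tbc1d24 aligned best with a single short palindromic stretch.

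**Figure D4:**
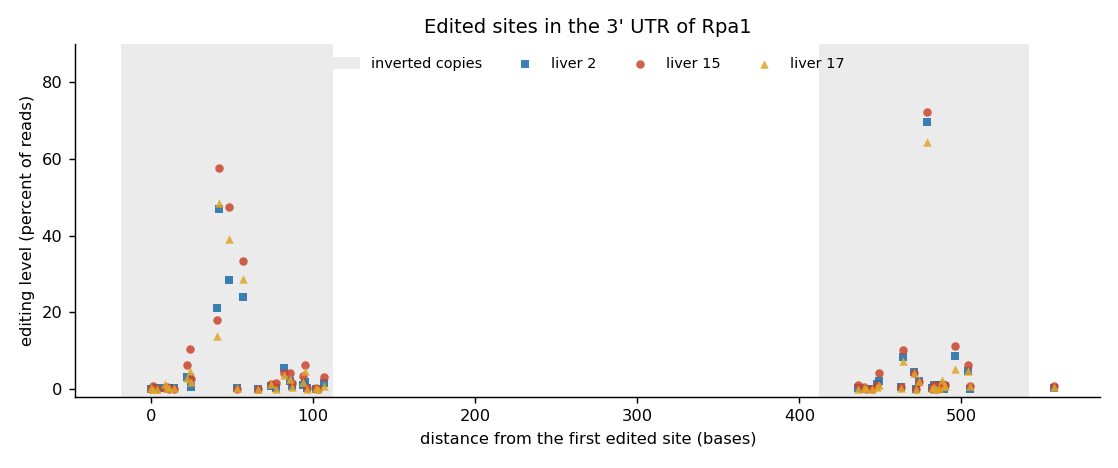
Editing level in percent of reads at each of the 50 edited sites of the Rpa1 3′ UTR in the 3 livers, against distance in bases from the first site. Shaded bands mark the inverted copies, which hold 49 of the sites, and a few sites above 20% stand among many below 10%.

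Within Rpa1 a few sites carried most of the editing. Site a (chromosome 11, 75114517; window chr11:75114503-75114531, minus strand) was edited at 69.6% in liver 2 (446 of 641 reads), 72.4% in liver 15 (569 of 786) and 64.5% in liver 17 (488 of 757). Its levels were not called unequal (exact test of edited and unedited reads among livers, Benjamini-Hochberg adjusted p = 0.0977). Site c (75114086; window chr11:75114072-75114100) was edited at 28.5% (Wilson 95% interval 25.1 to 32.3), 47.5% (43.6 to 51.4) and 39.0% (35.3 to 42.9), and was called unequal. Site b, 6 bases away, stood at 46.9%, 57.6% and 48.5% (exact test, adjusted p = 0.0341). Neighbouring sites of 1 transcript thus differed both in level and in how far the livers spread.

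Among all sites tested, 53 of 2349 (2.26%) were unequal among the 3 livers by the exact test at an adjusted p under 0.05, and 307 had an unadjusted p under 0.05. The test compares these 3 libraries and covers counting error only. Liver 15 was highest at 41 of the 53, and liver 2 was lowest or tied for lowest at 41. The ties include the sites in Jtb, Prdm10, Rnaseh2a and Tfrc, at 0 in both livers 2 and 17. The 53 include 7 sites, described below, that were read as G in 1 liver alone. Among these are the 3 called sites highest in liver 2, in Slc39a7, Rif1 and Creg1. Whether the 7 sites arise from editing was not tested. Rbbp4, the gene of a chromatin-assembly histone chaperone, had 3 of the 10 smallest p-values. Its site a (chromosome 4, 128987228; window chr4:128987214-128987242, minus strand) was edited at 18.7% (270 of 1446 reads), 31.7% (587 of 1852) and 22.2% (384 of 1730). Sites b and c stood at 11.8%, 20.8% and 12.4% and at 6.10%, 13.6% and 8.63%, and liver 15 was above both others at all 3 with intervals that did not overlap. Rhoa, the gene of a small GTPase of the actin skeleton (chromosome 9, 108239461; window chr9:108239447-108239475, plus strand), stood at 2.42% (25 of 1031), 11.8% (133 of 1130) and 7.45% (82 of 1100).

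The order of the livers was broader than the calls. Of 232 sites with at least 30 edited reads, 136 were highest in liver 15, 52 in liver 17 and 44 in liver 2, and 151 were lowest in liver 2. Livers that tied were counted for the first of them in the order 2, 15, 17. The 44 and the 151 thus include sites read as G throughout in all 3 livers. The 151 also include Jtb, at 0 in livers 2 and 17. Of these 232 sites, 36 were called unequal. The order held in most clusters: the mean over edited sites was 5.0%, 6.49% and 5.14% in Rpa1, 7.57%, 9.96% and 9.17% in Mad2l1, 9.30%, 13.5% and 11.7% in Rnf168, and 8.82%, 15.3% and 12.4% in Wdr76. The mean of Ncl stood at 1.85%, 1.89% and 1.65%. The counts of unequal sites depended on the livers, with 10 called without liver 2 and 13 without liver 15.

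Of 30 genes on a list of genes recoded by editing, 12 had a covered site outside the 3′ UTR. They held 58 such sites, 47 with an edited read and 17 at 1% or more. Both sets include intronic and synonymous sites, which change no amino acid. None of the 58 was called unequal by the exact test with Benjamini-Hochberg adjustment or by the chi-square test, and 2 had an unadjusted exact p under 0.05. With 2.26% of all sites called, so small a set could hold none without differing from the rest. Blcap, a gene first described in bladder cancer (chromosome 2, 157383885; window chr2:157383871-157383899, minus strand), was edited at 30.9% (21 of 68 reads), 24.5% (13 of 53) and 18.2% (12 of 66). Cog3, a gene of the Golgi tethering complex (chromosome 14, 76119526; window chr14:76119512-76119540, minus strand), was edited at 36.1% (30 of 83), 16.3% (17 of 104) and 23.0% (23 of 100; exact test, adjusted p = 0.154). Both were highest in liver 2, with intervals that overlapped the next liver's.

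The coatomer gene Copa and the filamin gene Flna were lower. Copa, a coat protein of Golgi vesicles (chromosome 1, 174022479; window chr1:174022465-174022493, plus strand), was edited at 11.5% (36 of 313), 8.12% (25 of 308) and 5.41% (18 of 333). Flna, which encodes a protein that crosslinks actin (chromosome X, 71472201; window chrX:71472187-71472215, minus strand), was edited at 3.25% (22 of 677), 4.64% (21 of 453) and 4.15% (20 of 482). An intronic Flna site nearby stood higher, at 20.9%, 25.9% and 28.9%. Of the 17 recoding-list sites at 1% or more, intronic and synonymous ones included, 6 were highest in liver 2, 7 in liver 15 and 4 in liver 17.

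**Figure D5:**
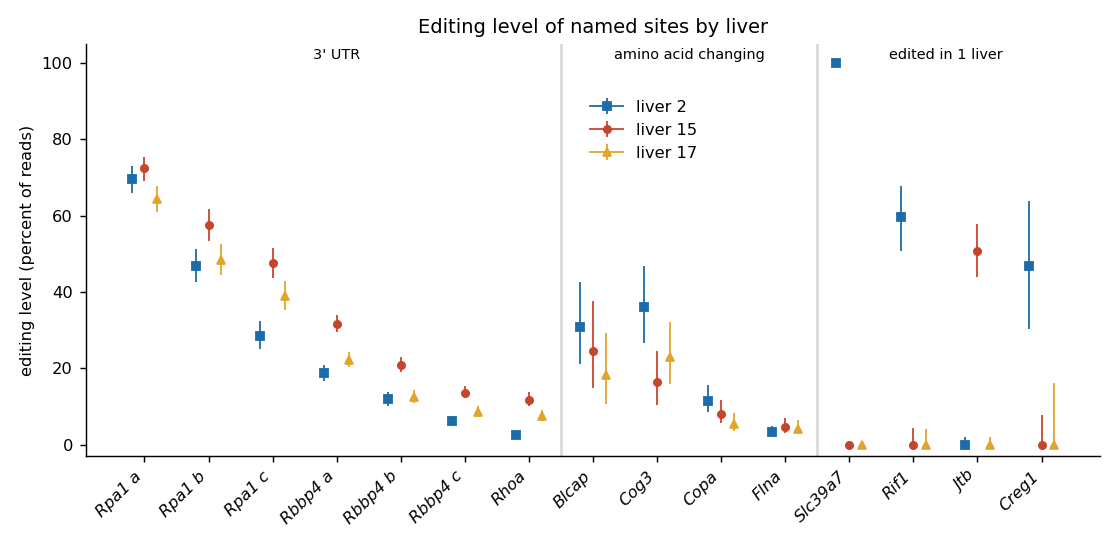
Editing level in percent of reads with its Wilson 95% interval for 15 named sites in each liver, with letters a to c for the 3 Rpa1 and 3 Rbbp4 sites with the most edited reads. Rbbp4 and Rhoa are highest in liver 15, Blcap, Cog3 and Copa have their highest point in liver 2 with an interval that overlaps that of the next liver, and Slc39a7, Rif1, Jtb and Creg1 are at 0 in 2 livers.

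A small group of sites was read as G in 1 liver and had no such read in the other two. Slc39a7, a zinc transporter gene (chromosome 17, 34166853, in an exon; window chr17:34166839-34166867, minus strand), was read as G in 543 of 543 reads of liver 2 and in 0 of 564 and 0 of 526 reads of livers 15 and 17, which allow levels of up to 0.532% and 0.570%. Rif1, a gene of DNA repair choice (chromosome 2, 51972191), was at 59.5% in liver 2 (75 of 126 reads) and 0 of 87 and 0 of 93 reads in the others, which allow up to 3.45% and 3.23%. Creg1 (chromosome 1, 167701305, intron) was at 46.7% in liver 2 (14 of 30) and 0 of 46 and 0 of 20, which allow up to 6.52% and 15%. Jtb (chromosome 3, 90037905) was at 50.8% in liver 15 (99 of 195) and 0 of 192 and 0 of 197 in livers 2 and 17, which allow up to 1.56% and 1.52%. With at least 8 edited reads in 1 liver and none in the other two there were 7 such sites. The remaining 3 had G in liver 15 alone, at 17.6% in Prdm10 (9 of 51 reads), 15.5% in Rnaseh2a (9 of 58) and 10.3% in Tfrc (13 of 126). Of the 7 sites, the one in Tfrc is marked as known in the deposited table.

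Another 15 sites were at 90% or more over the 3 livers. Of these, 5 lay in or beside the pseudogene Gm5578 (chromosome 6) and 5 in the pseudogene Gm16589 (chromosome 8), with 648 to 831 covering reads at each of the latter and every read carrying G. In Gm5578, 2 sites were A to G and 3 were T to C on the forward strand, so the substitutions lay on both strands of 1 locus. G stood before 13.3% of these 15 sites and T before 20%. None of the 15 is marked as known in the deposited table. Without them the mean level was 6.16% instead of 6.76%. Whether such sites arise from editing was not tested.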

How the data were processed

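RNA of 3 wild-type livers was sequenced by Illumina RNA-seq. Builds mm9 and NCBIM37 and the tools BWA, Bowtie2 (2.1.0.0), Cufflinks, edgeR, HTSeq, limma, SAMtools (0.1.19), TopHat, TopHat2 (2.0.8) and Trimmomatic (0.30) are listed in the submitters' processing notes, which tie none of them to a file. The gene table holds raw read counts as deposited by the authors. For each site, the table deposited by the authors gives read depth as counts and the edited fraction, per the file headers. Strandedness is not given in the sources used here, so overlapping genes may share reads.

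Libraries were scaled by TMM in edgeR 4.0.16 (R 4.3.3) to CPM, with 0.5 added before log2. Genes of at least 1 mean CPM were compared. TPM used union exon lengths of GENCODE M1. Edited reads were level times coverage, within 2.05e-06 of whole numbers. Sites with 10 or more reads in each liver entered a two-sided exact test (Fisher-Freeman-Halton, 2 by 3) and were adjusted by Benjamini-Hochberg (Python 3.11.15, SciPy 1.17.1). This test was tried on simulated data. Wilson intervals and floors of 3 reads cover counting error only. Clusters of up to 3000 bases were aligned with their own reverse complement, after adding 100 bases on each side.

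The members, 23 gene lists and the recoding list were chosen with earlier results of these data known. Named genes were the 25 highest by TPM, the 7 markers, the 3 highest of each list and members under 10 reads, and, of genes at 10 mean CPM or more, the 15 widest and 5 steadiest in spread and the 5 furthest above in each liver. Named sites were the 10 with the most edited reads, the 10 highest at 20 or more reads, the 10 with the smallest p, recoding-list sites and the 10 genes with most sites. Other list members, sites at 90% or more and those edited in 1 liver were chosen after their values were seen. Each liver is 1 sample, so 2-fold calls carry no test. Alternatives were other scalings, filters, folds and coverage minimums, and leaving out each liver. The mutant livers' columns, the authors' normalised table and their comparison of genotypes were not used here.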

Additional observations from a re-analysis of the deposited data

How the results depend on the processing

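No paired analysis was possible because a single group was used and the genotypes share no replicate number. Without liver 2 the biological coefficient of variation was 0.125, and it ranged to 0.357 with another liver left out. Genes at least 2-fold above numbered 361, 18 and 1 in livers 2, 15 and 17 at 10 CPM or more, 4401, 908 and 875 with no filter, and 501, 2 and 7 at 3-fold. Genes at least 2-fold below numbered 7, 55 and 3, then 675, 1775 and 1162, then 10, 110 and 10. With total-read scaling, liver 15 had 15 above and liver 2 had 20 below. With 1 liver left out, genes above ranged from 1327 to 1763 in liver 2, 74 to 122 in liver 15 and 64 to 290 in liver 17, and genes below from 64 to 122, 290 to 1763 and 74 to 1327. Filters, folds and left-out livers change these counts by construction, and the cause of the other moves given here was not tested. The unequal sites numbered 10 to 38 with 1 liver left out, 45 by a chi-square test and 52 to 54 with other coverage minimums. As a share of CPM the adult globins stood at 2.61%, hepatoblast genes at 2.05% and mesenchymal genes at 0.194%; hepatoblast genes stood at 1.35% of TPM without Afp and 3.04% without mitochondrial genes and globins. The mean editing level was 4.88% over summed reads, and 6.16% without sites at 90% or more, an alternative chosen after seeing the data. G before the edited A stood at 8.26% with 5 reads, 11.6% with 20 reads and 5.62% at sites with 3 or more edited reads, below the 22.8% of other A in each case. Scaling by total reads moved the median log2 difference between livers 2 and 15 from -0.02 to 0.16 over all genes. Under it 7668 of 13643 genes were highest in liver 2, against 5767. Coverage kept 3663 of the 6012 sites from being tested.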

Other observations

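Some gene groups outside the comparisons above were near level across the livers. Cytosolic ribosomal protein genes, 83 in the table, made up 13.3%, 12.5% and 13.5% of TPM in livers 2, 15 and 17, and genes of the mitochondrial genome 8.39%, 7.58% and 8.49%. The housekeeping genes Actb and Gapdh stood at 1600.0, 1641 and 1591 CPM and at 1462, 1543 and 1728 CPM. Mast cell and basophil genes were scarce: 2 of 9 reached a mean of 1 CPM, with the carboxypeptidase gene Cpa3 at 5.21, 6.21 and 4.78 CPM, and 5 had under 10 reads over the 3 livers.

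Among cytidine deaminases, Apobec3, which restricts retroviruses, stood at 46.5, 78.3 and 74.8 CPM, and Apobec1, which edits the Apob transcript, at 4.45, 4.53 and 4.01 CPM. A1cf and Rbm47, the RNA-binding partners of APOBEC1, stood at 29.6, 33.6 and 32.4 CPM and at 10.03, 9.25 and 9.46 CPM. Apob itself stood at 787.8, 718.5 and 706.9 CPM.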
